A study of Homo sapiens with 4 samples.

Results

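The interferon-stimulated genes described here are 42 protein-coding genes, taken by their symbols from 44591 rows in the files of 4 RNA-seq libraries. All 42 were found. They are known targets of interferon, and were chosen by their TPM in these same libraries, in which IFI6 and other interferon-induced genes had been seen high in replicates 2 and 3 and low in replicates 1 and 4. The values below describe its size gene by gene, with no test of the split itself. The libraries came from HaCaT, a keratinocyte line from human skin that grows without limit, kept without treatment in medium with fetal bovine serum. All 4 belong to this one condition, replicates 1 to 4, which the study calls biological repeats, and no other group was compared. The labels do not say whether they came from separate cultures.

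Interferons are secreted proteins that signal through receptors at the cell surface. Type I and type III interferons act through the kinases JAK1 and TYK2, and a complex of transcription factors that includes STAT2 and IRF9 then binds the interferon-stimulated response element in the promoters of target genes. The products of these genes block the entry, translation and replication of viruses, and some of them are sensors or regulators of the response itself. Keratinocytes, which form the outer barrier of the skin, can both make interferons and respond to them.

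The response element is built around repeats of GAAA. In the RefSeq promoters (GRCh38.p14, 250 bases before to 50 bases from the start of a gene), 2 copies of GAAA spaced by 2 bases (GAAANNGAAA, or TTTCNNTTTC where the match is on the other strand) were searched. Matches could overlap each other, and no other motif was searched. A promoter was found for 35 of the 42 members. MX2, OAS2, OASL, USP18, TRIM22, IFIT2 and IFITM2 had no entry. Of the 35, 27 (77.1%) held at least 1 match and 14 held 2 or more, counted in the promoter with the most matches where a gene has several. Of the 27305 genes with a promoter 4.38% held one, and of the 35116 promoters 3.57%. The windows shown first are those of 7 members with a large split, and the next set shows members with little or no split, so that both kinds can be read beside their values. Capitals mark the matches, and each sequence runs 5′ to 3′ on the strand of the gene.
IFI44L, chr1:78620264-78620404, plus strand: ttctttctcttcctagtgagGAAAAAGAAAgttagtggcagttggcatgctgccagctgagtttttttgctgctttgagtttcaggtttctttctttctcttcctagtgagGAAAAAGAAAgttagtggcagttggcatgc
IFI6, chr1:27672256-27672368, minus strand: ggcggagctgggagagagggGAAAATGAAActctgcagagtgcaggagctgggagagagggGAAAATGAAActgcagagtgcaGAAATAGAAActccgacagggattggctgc
IFI27, chr14:94110608-94110670, plus strand: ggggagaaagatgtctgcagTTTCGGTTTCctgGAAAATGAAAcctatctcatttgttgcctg
BST2, chr19:17405725-17405780, minus strand: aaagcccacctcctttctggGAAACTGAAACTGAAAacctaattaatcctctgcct
MX1, chr21:41420549-41420587, plus strand: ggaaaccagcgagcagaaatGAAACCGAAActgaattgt
ISG15, chr1:1013364-1013419, plus strand: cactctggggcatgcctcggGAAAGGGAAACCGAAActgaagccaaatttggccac
IFIT1, chr10:89392487-89392549, plus strand: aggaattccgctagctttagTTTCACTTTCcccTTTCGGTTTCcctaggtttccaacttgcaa

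In BST2 and ISG15 the matches overlap, so that 3 copies of GAAA stand in a row. The matches of IFI6 start at positions -156, -115 and -93, counted from the start of the gene. MX1 has 3 promoters in the table, none with more than 1 match, and the match shown starts at position 12, inside the gene. Matches in its other promoters are not given here. The members with a smaller split that are shown next carried the same letters.
PARP9, chr3:122564312-122564361, minus strand: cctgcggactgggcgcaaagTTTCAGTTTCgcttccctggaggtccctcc
DTX3L, chr3:122564312-122564361, plus strand: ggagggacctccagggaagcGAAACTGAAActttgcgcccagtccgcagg
DDX60, chr4:168318776-168318860, minus strand: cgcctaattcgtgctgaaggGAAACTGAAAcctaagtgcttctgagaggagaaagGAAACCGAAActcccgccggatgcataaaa
LGALS3BP, chr17:78979952-78980001, minus strand: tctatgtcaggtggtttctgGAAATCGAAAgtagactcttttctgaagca
SAMD9, chr7:93118086-93118135, minus strand: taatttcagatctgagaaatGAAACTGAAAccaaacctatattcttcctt

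PARP9 and DTX3L are transcribed away from each other, and the same 50 bases, read on opposite strands, hold the match shown for both. The match of SAMD9 starts at position -136, although SAMD9 did not follow the split. A match was found in 16 of the 23 members with a promoter and a split of at least 2-fold, and in 11 of 12 of the others (69.6% and 91.7%). CMPK2, OAS1, XAF1, HERC6, IFI35, SP110, UBE2L6 and SAMD9L had a promoter in the table without a match. Of the 44 matches in members, in the promoter with the most matches of each, 43 started before the start of the gene, 40 of them within 150 bases. Those of DTX3L, EIF2AK2 and IFITM1 at -6 and of IFIT5 at -4 run across it. Outside the members, 9 of 53 genes with a split of at least 2-fold (17.0%) and 343 of 9423 other genes tested (3.64%) held a match. Those 53 genes were set apart by the same replicate values that chose the members, so nothing is read from the difference. These shares describe letters in a fixed window and not binding.

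**Figure D1:**
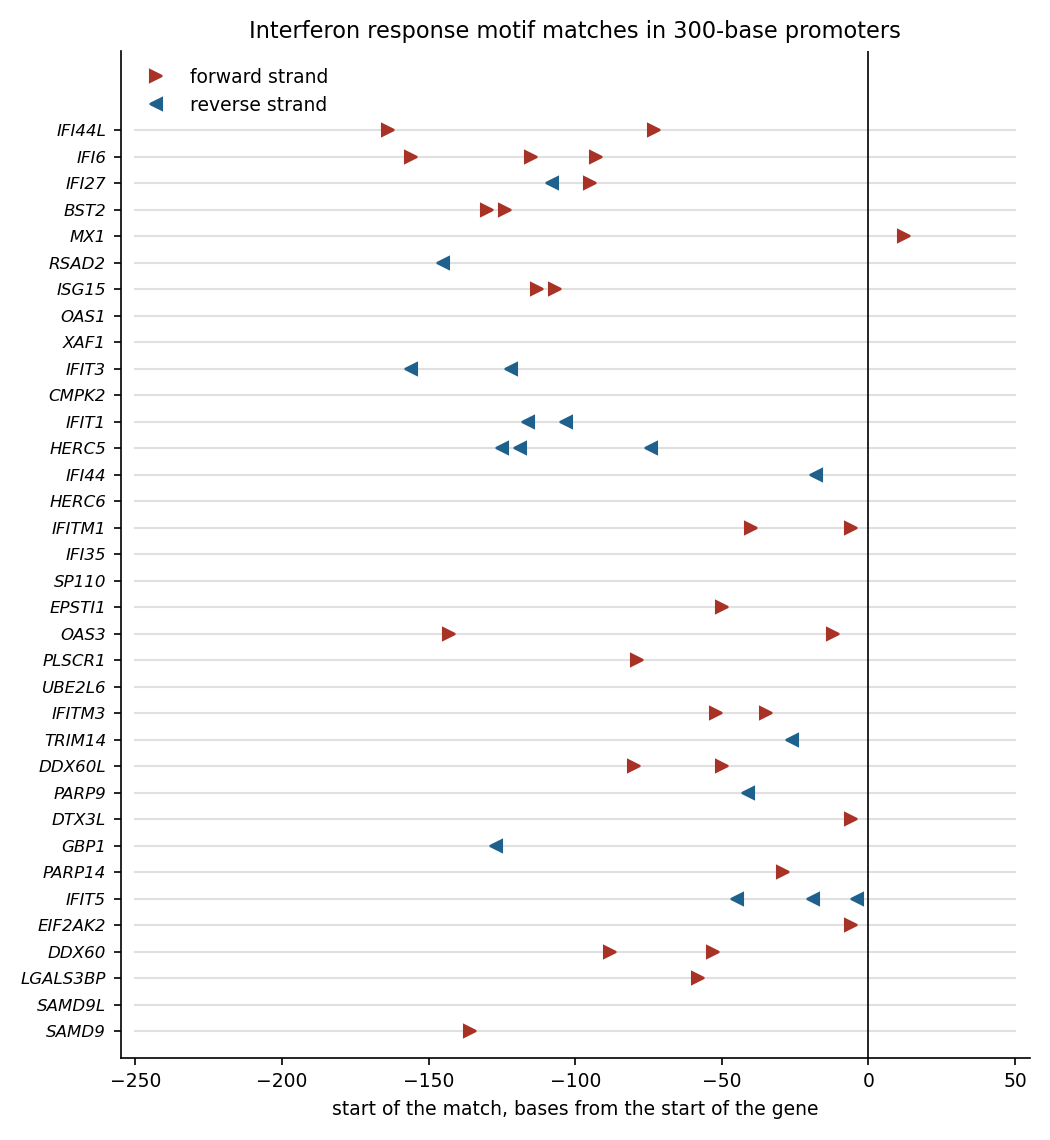
Start of each GAAANNGAAA match in bases from the start of the gene, for the 35 members with a promoter, ordered from the largest split (top) to the smallest. Where a gene has several promoters, the one with the most matches is drawn. Triangles point in the direction of the strand, and 43 of 44 matches begin before the start of the gene.

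Levels are given as TPM, counts per base of gene length scaled to 1000000 over the 19233 protein-coding genes of a library, so that they can be compared between genes. Replicate 1 was the deepest with 73082279 counts, and the other libraries had between 17056035 and 19745170. The share of protein-coding genes was 76.1% in replicate 1 and at least 95.3% elsewhere, which is why the other classes of RNA were left out of the scale. For each gene, the lower of replicates 2 and 3 was divided by the higher of replicates 1 and 4, with fewer than 3 counts in a library set to 3. This smallest ratio is above 1 only where the 2 pairs do not overlap. It was computed for the 12165 protein-coding genes with a mean TPM of at least 1. All 42 members passed this limit, although MX2 and IFI44L, under 1 TPM in both low replicates, passed only through replicates 2 and 3. The files deposited for replicates 1 and 2 carry RPKM beside the counts and those for replicates 3 and 4 carry TPM, so each kind of file holds 1 high and 1 low replicate.

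Of the 42 members, 39 had both replicates 2 and 3 above both replicates 1 and 4, where 14.9% of all genes tested did. A smallest ratio of at least 2 was found in 29 members, against 0.871% of all genes, and of at least 4 in 26, against 0.362%. No member had replicates 1 and 4 both above replicates 2 and 3, the direction taken by 24.9% of all genes (0.929% by at least 2-fold). Since the members were chosen for this split, nothing is read from these shares beyond its size. The median smallest ratio was 4.71 over the members and 0.604 over all genes. Without replicate 4 it was larger, 3.34 in place of 2.24 on the log2 scale, and 27 of the 42 members were lowest in replicate 1. Of the TPM, the 42 genes together took 2.20% and 1.88% in replicates 2 and 3, but only 0.173% and 0.412% in replicates 1 and 4. Their median TPM was 17.0, 136, 128 and 19.7 in replicates 1 to 4, while that of all genes tested stayed between 18.4 and 24.3. The 1000 highest protein-coding genes included 17 and 18 members in the high pair, and only 3 (replicate 1) and 6 (replicate 4) in the low pair.

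**Figure D2:**
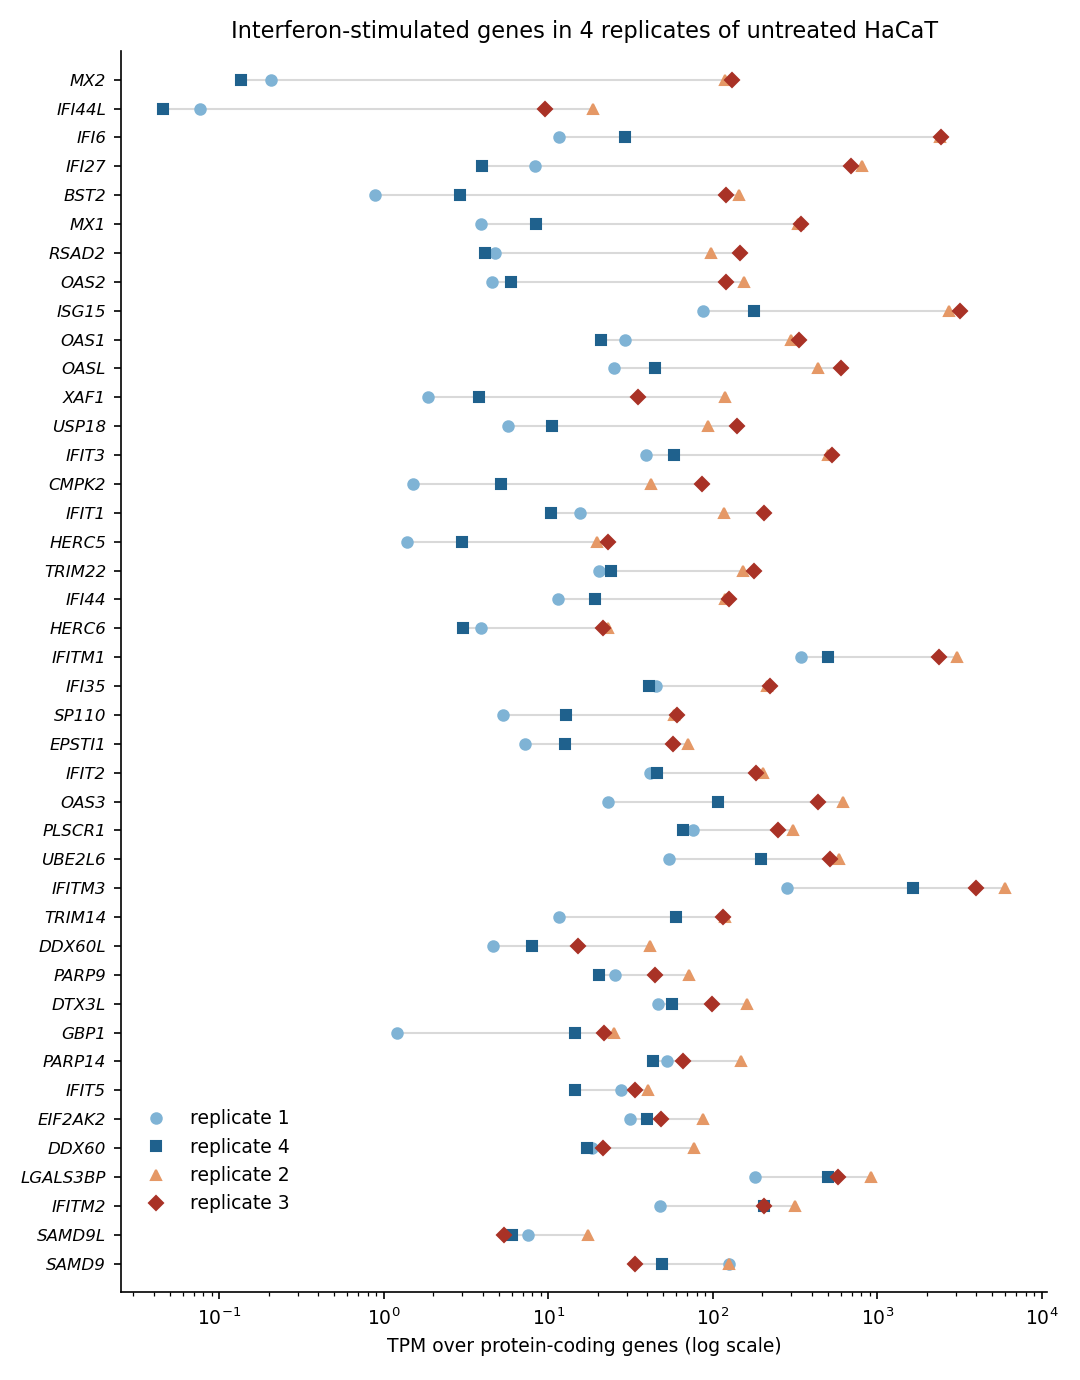
TPM over protein-coding genes (log scale) of the 42 members in each of the 4 replicates of untreated HaCaT, ordered by the smallest ratio; the grey line spans the 4 values of a gene. Replicates 2 and 3 stand to the right of replicates 1 and 4 in 39 genes, from a 572-fold gap in MX2 to overlapping values in the 3 genes at the bottom.

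Single libraries gave the same picture from each side. Replicate 2 was higher than replicate 4 in 42 of 42 members, with a median ratio of 5.93, and higher than replicate 1 in 42, with a median of 10.3. Replicate 3 was higher than replicate 4 in 39 members (median 5.09) and higher than replicate 1 in 40 (median 11.2). For all genes tested these 4 medians lay between 0.791 and 1.04. Within the high pair the median ratio of replicate 2 to 3 was 1.16 (1.27 over all genes), and within the low pair that of replicate 1 to 4 was 0.678 (0.978). The direction within the high pair depended on the scale, with a log2 median of 0.22 in TPM, -0.13 with TMM, -0.09 with DESeq2 size factors and -0.06 after centring on GC content and length. The 95% Clopper-Pearson interval of the ratio, which covers counting error only, excluded 1 in 36 members for replicates 2 and 3 and in 37 for replicates 1 and 4. Replicates of the same pair thus also differed from each other by more than counting error in most members. The share over all genes tested was not computed for these intervals or for the single-library counts above. Neither is therefore read as particular to the members. Leaving out a replicate can only raise a smallest ratio. It did so by over 1.5 times in 20 members without replicate 4, in 13 without replicate 3, in 4 without replicate 1 and in 4 without replicate 2. Of these members, the ratio without replicate 4 was 209 in IFI6, 84.7 in MX1, 31.0 in ISG15, 17.4 in OASL and 18.7 in XAF1. It was 28.0 in CMPK2, 16.4 in USP18, 14.3 in HERC5, 10.9 in SP110, 10.4 in IFI44, 7.93 in EPSTI1 and 3.28 in DDX60L. Without replicate 3 it was 244 in IFI44L, 2.88 in DTX3L, 2.84 in PARP9 and 1.83 in LGALS3BP. Without replicate 1 it was 877 in MX2 and 175 in IFI27, and without replicate 2 it was 30.9 in RSAD2, 13.4 in USP18 and 13.1 in IFIT1. The other members of these counts are given with their values below.

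**Figure D3:**
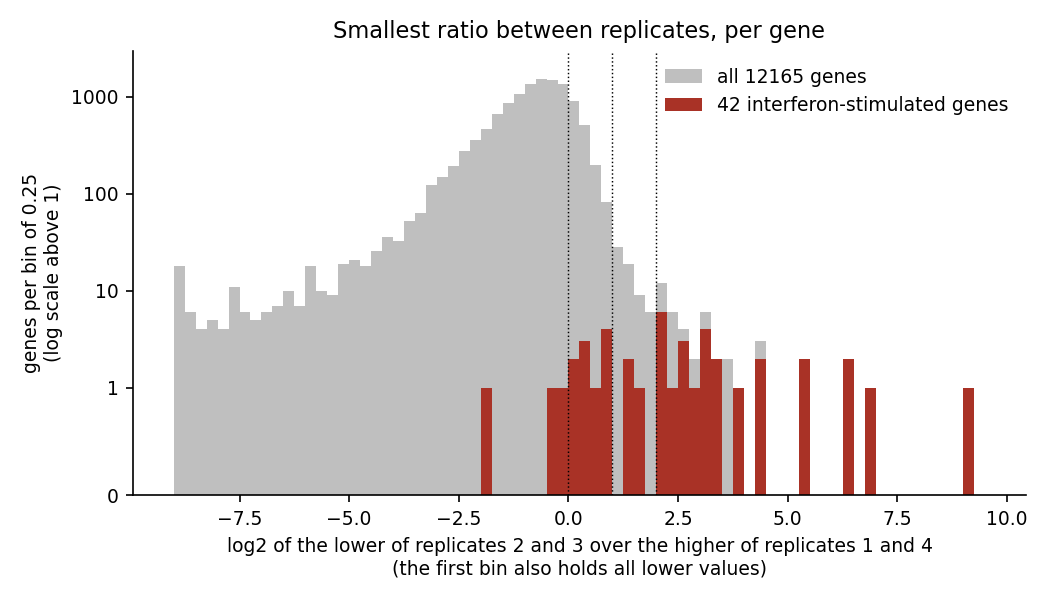
Number of genes (log scale above 1) by the log2 of the smallest ratio, in bins of 0.25, for all 12165 genes tested (grey) and the 42 members (red); dotted lines mark ratios of 1, 2 and 4. The 8 genes farthest to the right are all members, which were chosen for this split, with log2 ratios from 4.35 to 9.16.

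The dynamin-like GTPases MX1 and MX2, which restrict viruses at steps after entry, and the guanylate-binding protein GBP1 spanned nearly the whole range of the split. MX2 (hg19 chr21:42733950-42780869) had 15, 2349, 3459 and 3 counts in replicates 1 to 4, a TPM of 0.208, 119, 130 and 0.136. Its smallest ratio, replicate 2 over 1, was 572 (346 to 1024), the largest of all genes tested. MX2 thus ranked 12947 and 13832 among protein-coding genes in the low replicates and 1445 and 1286 in the high ones. Its neighbour MX1 (chr21:42792485-42831141) had a TPM of 3.88, 328, 344 and 8.47, with a smallest ratio of 38.8 (34.0 to 44.4). Both high replicates of MX1 ranked 404. GBP1 had 1.20, 25.2, 21.7 and 14.5, so replicate 4 was close to the high pair (smallest ratio 1.49, and 18.0 without replicate 4). The ratio of replicate 1 to 4 in GBP1, 0.0827 (0.0647 to 0.105), was the lowest of the members.

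The short genes of the IFI group were among the most abundant. IFI6, a mitochondrial and endoplasmic reticulum protein that protects cells from death, lies on hg19 chr1:27992572-27998724. It had a TPM of 11.6, 2417, 2442 and 29.2, and its rank moved from 8188 and 5455 in replicates 1 and 4 to 44 and 56 in replicates 2 and 3. The smallest ratio of IFI6 was 82.8 (71.7 to 96.2), and replicates 2 and 3 did not differ beyond counting error (ratio 0.990, 0.968 to 1.01). IFI27 (chr14:94577079-94583036), a small membrane protein of the same family, had 8.34, 802, 687 and 3.93, with a smallest ratio of 82.3 (70.5 to 96.7). IFI44L (chr1:79086067-79111830) was nearly silent in the low pair, with 11 and 2 counts in replicates 1 and 4 against 734 and 507 in replicates 2 and 3. Its TPM was 0.0768, 18.7, 9.57 and 0.0455, and its smallest ratio, replicate 3 over 1, was 125 (69.0 to 251). IFI44, its neighbour on chromosome 1, had a smallest ratio of 6.19 and was far from silent in the low pair, with a TPM of 11.4 in replicate 1 and 19.2 in replicate 4.

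XAF1, which counters the inhibitor of apoptosis XIAP, lies on chr17:6659156-6678966 and had a TPM of 1.86, 118, 34.9 and 3.78. It is one of the members in which the high pair disagreed, since replicate 2 was 3.38 times (3.15 to 3.62) replicate 3. The smallest ratio of XAF1 was 9.24 (7.54 to 11.4), and without replicate 3 it was 31.2. IFI35 and EPSTI1 followed with 4.71 and 4.53. LGALS3BP, a secreted glycoprotein that binds galectins, was abundant in all libraries (179.9, 918, 580.2 and 502) and its pairs were separated by only 1.16 (1.12 to 1.19), replicate 3 over 4. Without replicate 4 this was 3.23. In the IFI group 8 of 8 members followed the split, 7 of them by at least 2-fold.

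**Figure D4:**
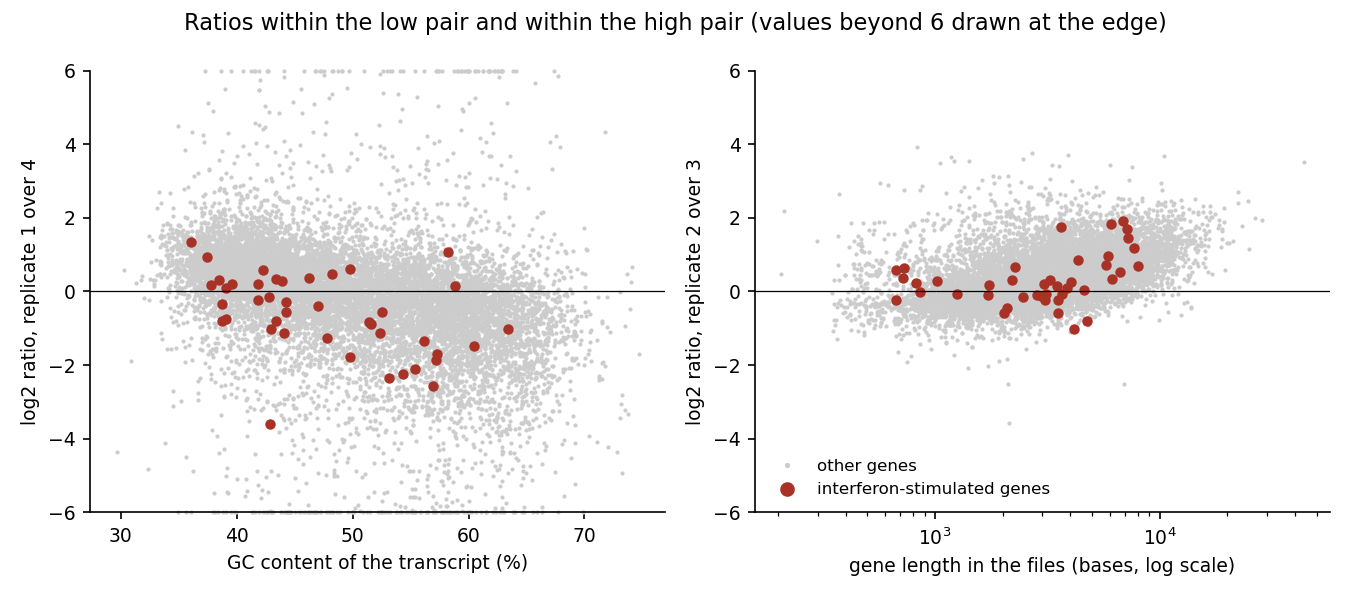
Left, the log2 ratio of replicate 1 to 4 against the GC content of the transcript (%); right, the log2 ratio of replicate 2 to 3 against the gene length in the files (bases, log scale). Grey points are other genes tested and red points are the 42 members, which follow the slope of all genes in both panels: downwards on the left (Spearman -0.503 over members) and upwards on the right (0.415).

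Some of the differences within a pair moved with properties of the transcripts. Across genes, which are not independent and share the 2 libraries, the log2 ratio of replicate 1 to 4 had a Spearman correlation with GC content of -0.503 over the 42 members and -0.477 over 11889 genes tested. For replicates 2 and 3 the correlation with gene length was 0.415 over the members and 0.487 over 12165 genes. The other combinations were less alike, with 0.325 over members and -0.00326 over all genes for replicate 1 to 4 with length, and -0.302 and -0.130 for replicate 2 to 3 with GC content. All 10 members longer than 5000 bases were higher in replicate 2 than in replicate 3, by a median of 2.10 (1.71 over all genes of that length). The share of all genes of that length that were higher in replicate 2 was not computed. For the 8 members shorter than 1500 bases the median was 1.19 (0.898 over all such genes). After each ratio between libraries had been centred on genes of similar GC content and length, a setting chosen after seeing the data, 40 members followed the split and 35 did so by at least 2-fold, against 21.1% and 1.01% of all genes. Whether GC content or length accounts for the values of any one member was not tested.

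The ubiquitin-like protein ISG15 and the members grouped with its conjugation, USP18, HERC5, HERC6 and UBE2L6, all split by more than 2-fold. ISG15 (chr1:948847-949920) had a TPM of 87.4, 2711, 3177 and 179, with a smallest ratio of 15.2 (14.2 to 16.3). This placed it 35th and 41st among protein-coding genes in replicates 2 and 3. USP18, the protease that removes ISG15 and dampens signalling at the interferon receptor, had a smallest ratio of 8.87. HERC5, the ligase for ISG15, and its paralog HERC6 stood at 6.55 and 5.53. UBE2L6, the conjugating enzyme, had the smallest split of the group (2.61), and its levels in the low pair differed, 54.3 in replicate 1 and 197 in replicate 4. Without replicate 4 its ratio was 9.46.

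The oligoadenylate synthetases make the second messenger that activates RNase L after double-stranded RNA has been sensed. OAS1, OAS2 and OAS3 lie side by side on chromosome 12. OAS2 (chr12:113416274-113449528) had a TPM of 4.53, 154, 121 and 5.96, a smallest ratio of 20.4 (18.0 to 23.1). OAS1 (chr12:113344582-113369995) had 29.2, 299, 334 and 20.8, with a ratio of 10.3 (9.72 to 10.8). OAS3, between them, reached the highest level of the family in replicate 2 (23.1, 620.3, 433 and 108), and its smallest ratio of 4.01 was set by replicate 4, since replicate 1 was at 0.214 of it. Without replicate 4 the ratio of OAS3 was 18.8. OASL, a related protein without synthetase activity that enhances RNA sensing, lies elsewhere on the chromosome (chr12:121458095-121477045). With 25.0, 435, 599 and 44.7 it had a smallest ratio of 9.75 (9.01 to 10.6). All 4 members of the family thus had separate pairs. An antisense gene overlaps OAS1, OAS2 and OAS3 on the opposite strand, and how strand was used in counting is not given in the sources used here. The same limit holds for all 10 members that overlap another gene on the opposite strand, among them IFI6, MX1, IFITM3, SP110 and EPSTI1.

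The IFIT proteins bind foreign RNA and block its translation, and their genes form a cluster on chromosome 10. IFIT3, IFIT1 and IFIT2 had smallest ratios of 8.58, 7.50 and 4.02. IFIT1 also differed within the high pair, with a TPM of 117 in replicate 2 and 204 in replicate 3. IFIT5 at the end of the cluster split little, with 27.7, 40.5, 33.7 and 14.6 and a smallest ratio of 1.22 (1.14 to 1.30), although its promoter held 3 matches of the motif. Here replicate 1 set the limit, and without it the ratio was 2.31. Summed over the 4 genes, the TPM was 124, 859, 952 and 129 in replicates 1 to 4.

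Members that act at membranes included the most abundant of all. The IFITM proteins hinder the fusion of viruses with cell membranes. IFITM3 had a TPM of 281, 5994, 3989.8 and 1657 and ranked 9 and 26 among protein-coding genes in replicates 2 and 3. Its ratio was only 2.41 because replicate 4 stood well above replicate 1, and it was 14.2 without replicate 4 and 3.62 without replicate 3. IFITM1 had a smallest ratio of 4.71, with a lowest TPM of 342. In IFITM2 (chr11:308107-309410) the pairs overlapped, with 47.8, 315, 204 and 206 (replicate 3 over 4, 0.987, 0.911 to 1.07). The overlap was not stable, since the ratio was 1.53 without replicate 3 and 4.26 without replicate 4. With all 4 libraries the log2 ratio was also above 0 for counts scaled by library total (0.21), TMM (0.33) and DESeq2 size factors (0.31). The 3 IFITM genes are close paralogs, and reads may have been divided among them in counting. BST2, or tetherin, which holds budding viruses at the cell surface, lies on chr19:17513748-17516457 and had 0.888, 145, 119.7 and 2.90. Its smallest ratio of 41.3 (27.1 to 66.2) was the fifth largest, and without replicate 4 it was 135. PLSCR1, a phospholipid scramblase, had a ratio of 3.28.

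Members that act on nucleotides and RNA ranged from the seventh largest split to the smallest. RSAD2, or viperin, which makes a chain-terminating nucleotide, lies on chr2:7017796-7038363 and had a TPM of 4.73, 97.0, 146 and 4.13, a smallest ratio of 20.5 (18.4 to 22.8). CMPK2, the nucleotide kinase beside it, had a ratio of 8.16, and without replicate 2 it was 16.5. The helicase-related DDX60L stood at 1.88, and at 5.19 without replicate 3. Its paralog DDX60 (chr4:169137442-169239958) had 18.5, 77.3, 21.5 and 17.3, so that replicate 2 stood alone (ratio 1.17, 1.09 to 1.25, and 4.19 without replicate 3). EIF2AK2, the kinase PKR that halts translation on double-stranded RNA (chr2:37332281-37384190), had 31.5, 86.7, 48.1 and 40.0, a ratio of 1.20 (1.12 to 1.29), which was 2.17 without replicate 3.

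SAMD9 and SAMD9L, neighbours on chromosome 7 that restrict poxviruses and cell growth, did not follow the split. SAMD9 (chr7:92728826-92747336) had a TPM of 125, 126, 33.6 and 49.4, with replicates 1 and 2 high and replicates 3 and 4 low. Its smallest ratio was 0.268 (0.256 to 0.280), with 1.01 without replicate 3 and 0.681 without replicate 1. SAMD9L (chr7:92759367-92777701) had 7.57, 17.5, 5.41 and 6.06, with replicate 2 alone above the others and a ratio of 0.715 (0.633 to 0.805). Without replicate 3 its ratio was 2.31. Replicate 2 was 3.77 times replicate 3 in SAMD9 and 3.24 times in SAMD9L, and with lengths of 6855 and 7155 bases and GC contents of 36.0% and 38.5% both are among the 5 longest members and the 5 with the lowest GC content.

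The remaining members are ADP-ribosyltransferases, ubiquitin ligases and a nuclear body protein. TRIM22 and SP110 had smallest ratios of 6.35 and 4.54. TRIM14, an adaptor of antiviral signalling, fell just under 2-fold at 1.96, while IFITM3 at 2.41 was the lowest member above it. For TRIM14 the ratio was 10 without replicate 4. PARP9 and its partner DTX3L, which share the promoter shown above, had smallest ratios of 1.75 (replicate 3 over 1) and 1.74 (replicate 3 over 4). Between the same libraries they were less alike. Replicate 3 over 4 was 2.19 in PARP9 and 1.74 in DTX3L, and replicate 3 over 1 was 1.75 and 2.11. The rows of both genes overlap on opposite strands, so reads of the shared end may have been counted for either. PARP14 stood at 1.24, and at 2.80 without replicate 3. All 6 members of the group followed the split, 2 of them by at least 2-fold.

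The genes of the pathway outside the members were taken from lists of receptors and kinases, transcription factors, feedback inhibitors, sensors, ligands and antigen presentation genes. Of 44 tested, 24 followed the split and 6 did so by at least 2-fold, where 14.9% and 0.871% of all genes tested did. These 6 include IFNL1 and IFNL3, which were under 1 TPM in both low replicates and were tested only through replicates 2 and 3. None of the 9 receptors and kinases followed the split, and their summed TPM was 398, 317, 235 and 311. With so few genes this count cannot be told apart from the share of 14.9% over all genes. Among the transcription factors, IRF7, which amplifies interferon production, had a TPM of 35.6, 302, 376 and 35.9, a smallest ratio of 8.42. IRF9 had 78.2, 215, 183 and 34.7 (2.34). STAT2, its partner, had 58.4, 83.3, 50.2 and 31.6, with overlapping pairs. Of the sensors, DHX58 had 6.76, 53.3, 58.0 and 10.2 (5.23). Of the 15 antigen presentation genes 12 followed the split, none by 2-fold.

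The interferon genes themselves had few counts. IFNL1, a type III interferon, had 0, 13, 47 and 1 counts in replicates 1 to 4. IFNL3 had 0, 10, 25 and 0 counts, which is at least 3.74-fold higher in each of replicates 2 and 3 than in replicates 1 and 4, taking 3 counts per library as the limit. IFNL2 and IFNB1, under a mean TPM of 1 and not tested, had 0, 12, 10 and 0 and 0, 3, 15 and 0 counts. IFNE, an interferon of epithelia, ran the other way, with 77, 13, 6 and 24 counts, a TPM of 2.15, 1.33, 0.453 and 2.18. The other ligands searched, IFNA1, IFNA2, IFNK and IFNG, had at most 2 counts in any library. The 5 genes outside the members with the largest smallest ratio were BATF2, CCL5, CXCL10, IRF7 and AMH. CCL5, a chemokine that attracts T cells, had a TPM of 0.753, 41.5, 59.4 and 3.27 (ratio 12.7). CXCL10, a chemokine induced by interferon, had 0, 32, 143 and 1 counts, and BATF2 had 4, 55, 70 and 1. AMH, anti-Müllerian hormone, had a TPM of 0.577, 9.50, 4.68 and 0.579 (8.08). BATF2, CXCL10 and AMH were under 1 TPM in both low replicates. They passed the limit of a mean TPM of 1 only through replicates 2 and 3. Of the 42 genes with the largest smallest ratio, 24 were members. Since the members were chosen for this split, nothing is read from that count.

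The label of the cells was checked against markers. All 8 keratinocyte markers were expressed and none followed the split, but most differed between replicates. Of all genes tested 14.9% followed the split, and 8 genes are too few to be told apart from that share. KRT14 was the most even, with a TPM of 6375 to 7642, while DSG3 had 578, 139, 39.9 and 104 and ITGB4 had 105, 453, 186 and 471. Of 9 immune cell markers, CD3D and MS4A1 had 0 counts in every replicate and PTPRC had 3, 0, 0 and 0. The summed TPM of these 9 was 11.4, 52.0, 43.2 and 25.5, nearly all from CD14 and CD68. CD68, a lysosomal protein of macrophages that other cells also make, had 7.94, 43.9, 38.2 and 16.1 and so moved with the split. Of the plasmacytoid dendritic cell markers CLEC4C had 0 counts, and the sum of the 3 was at most 0.440 TPM. Fibroblast markers summed to between 5.20 and 9.70, endothelial markers to between 0.859 and 2.36 and melanocyte markers to between 1.36 and 3.52, but most of these genes were under the limit of a mean TPM of 1. Only 2 fibroblast markers and 1 melanocyte marker were tested, and none of these 3 followed the split, too few to compare with the share over all genes. Among untested fibroblast genes, the collagen COL1A2 had 0, 7, 102 and 0 counts in replicates 1 to 4, and COL3A1 had 10, 3, 134 and 28. Other fibroblast genes were highest in replicate 1, with 186, 0, 26 and 0 counts for DCN and 172, 0, 23 and 6 for LUM, which was tested. In bulk libraries a larger share of responding cells and a higher level in each cell cannot be told apart.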

How the data were processed

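Gene tables of 4 untreated HaCaT libraries were used. For each library the authors deposited unnormalized counts by gene, with a gene length and an hg19 position, and beside them RPKM for replicates 1 and 2 and TPM for replicates 3 and 4. The submitters' processing notes name hg19, HISAT2, TopHat2, Bowtie2 and HISAT with no role or order, and the annotation is not given in the sources used here. The deposited RPKM and TPM were returned from counts and lengths and were not used further. TPM was computed over protein-coding genes from the deposited counts. No differential test was run, since the labels give one group. Ratios of single libraries carry 95% Clopper-Pearson intervals for counting error only. Since reads carried no molecular identifiers, they are not independent molecules.

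Total counts ranged from 17056035 to 73082279 per library. Members and gene lists were chosen with earlier results of these data known. Values in every replicate were to be given for the 12 members with the largest and the 6 with the smallest smallest ratio, pathway genes of at least 2-fold and 5 leading other genes, and by range for the rest. GBP1, IFI44, OAS3, IFITM3, IFIT1, IFIT5, UBE2L6, STAT2, IFNL2, IFNB1, IFNE, CD68, COL1A2, COL3A1, DCN, LUM and the other members' ratios were added after their values were seen. Motifs were searched in RefSeq promoters, matched by symbol, and GC content was taken from GENCODE release 29. The protein identity of paralogs was not analysed here, and values of some genes of the lists are not reported here. The ratio was tested on simulated data. Alternatives were TPM over all rows, counts scaled by library total, TMM (edgeR 4.0.16), DESeq2 1.42.0 size factors, pseudocounts, other filters and leaving out each replicate. The scripts ran in Python 3.11.15 with SciPy 1.17.1.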

Additional observations from a re-analysis of the deposited data

Results flagged for a closer look

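Each member's 4 TPM values were searched for a replicate far from the other three by Dixon's ratio. One of the 42 members passed. For DDX60 the TPM of replicate 2 was 77.3 and those of the other replicates lay between 17.3 and 21.5, so the gap took 0.929 of the whole range. Chance flags about 1 in 20 sets of 4 values drawn from one normal distribution. That rate cannot be applied here, since the members were chosen for a split between pairs of replicates.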

How the results depend on the processing

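The split counts stayed within 1.5 times of 39 and 29 under every setting tried, but not every setting could lower them. Leaving out a replicate can only raise a smallest ratio, and dropping the filter keeps the same 42 members. Pseudocounts keep the order of the replicates, on which the count of 39 rests. Members with separate pairs numbered 38 (mean TPM of at least 10, which 40 members passed) to 42 (without replicate 3), and members with at least 2-fold 26 (threshold of 4-fold) to 37 (without replicate 3). The shares over all genes moved more, from 14.9% and 0.871% to 40.6% and 18.4% without replicate 4 and to 30.8% and 2.41% without replicate 3, and lay between 11.9% and 24.7% and between 0.715% and 1.58% otherwise (0.362% for 4-fold). Leaving out each replicate gave a median smallest ratio of 2.28 to 3.34 on the log2 scale (2.24 with all 4). TPM over all rows moved the medians that involve replicate 1, to 4.89 for replicate 2 over 1, 4.99 for replicate 3 over 1 and -2.15 for replicate 1 over 4. In that library protein-coding genes took fewer of the counts. Single members changed sign as follows (log2 of the smallest ratio). IFITM2 was 0.21 for counts scaled by library total, 0.33 with TMM and 0.31 with DESeq2 size factors, so that 40 members split there. The median of replicate 2 over 3 was -0.13 with TMM, -0.09 with DESeq2 and -0.06 after centring (0.22 in TPM). IFITM2 lay between -0.0188 and 2.09, SAMD9L between -0.48 and 1.21 and SAMD9 between -1.90 and 0.0125 when one replicate was left out, and SAMD9L was 0.98 after centring on GC content and length. The causes were not tested. For IFI44L and MX2, with few counts in both low replicates, the size depends on the pseudocount. IFI44L was 3.29 and MX2 6.64 on the log2(TPM + 1) scale (6.96 and 9.16). The smallest ratios of MX2 and IFI44L rest on 15 and 11 counts in replicate 1.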
